A study of Rattus norvegicus with 36 samples.

Results

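The 10 genes described here encode the lipid droplet machinery, the secreted hormones and the fat-handling enzymes of adipocytes: Fabp4, Adipoq, Lep, Plin1, Cidec, Cidea, Pnpla2, Lipe, Pparg and Lpl. They were chosen by name, with earlier results of these data known. Every probe set whose platform annotation gives only 1 of these symbols was taken. This gave 12 probe sets (2 each for Plin1 and Lipe) out of 31099 on the array, and 10 gene symbols out of 14218. Expression was measured in female Sprague-Dawley rats on 36 arrays, of which 33 hold mammary cancers and 3 hold normal gland. The values are linear intensities, 1 per probe set and array.

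The cancers came from rats given whole-body gamma rays (1 Gy), the alkylating agent MNU (40 mg/kg), the cooked-meat mutagen PhIP (40 mg/kg/day) or a combination, and were labelled by whether H-ras was mutated. Radiation plus MNU preceded 9 cancers, 5 mutated and 4 nonmutated. MNU alone preceded 9, again 5 mutated and 4 nonmutated. Radiation plus PhIP preceded 4 nonmutated cancers, PhIP alone 1 mutated and 3 nonmutated, and radiation alone 4 nonmutated ones. Spontaneous cancers of untreated rats, all nonmutated, numbered 3, and the 3 normal tissues were also from untreated rats. Treatment was at 7 weeks of age, and a diet with 23.5% corn oil was fed to all rats from 9 weeks. The labels used here give neither the age at sampling nor whether each cancer came from a different animal, so p-values measure the spread between these samples.

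An adipocyte stores triglyceride in a large droplet coated by perilipin and enlarged by the CIDE proteins. Fat enters after lipoprotein lipase has split it from circulating lipoproteins, and leaves when adipose triglyceride lipase and then hormone-sensitive lipase cut it back to fatty acids. The nuclear receptor PPAR-gamma, together with C/EBP factors, switches this programme on, and the cell reports its stores to the body through leptin and adiponectin. The mammary gland of a rat lies within a fat pad, so normal mammary tissue holds many adipocytes beside epithelium.

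Promoters of these genes are shown first because C/EBP factors are the known partners of PPAR-gamma in fat cells and 9 of the 10 genes were lower in cancers than in normal tissue. RefSeq windows (build GRCr8) of 300 bases, from 250 before to 50 after the annotated start, were found for 7 of the 10 genes and gave 8 windows, since Pparg has 2 starts. A C/EBP-type motif, TTNNGCAA on either strand (TTGCNNAA on the other), was present in 4 of the 8 windows and in 10.6% of all 33469 rat promoter windows of this length. Those 4 windows are printed 5′ to 3′ along the gene, with the match in capitals. Counted from the start site, the matches begin at −69 in Lep, −77 in Plin1, −209 in Cidec and −174 at the second start of Pparg.
Lep, chr4:58626288-58626587, plus strand: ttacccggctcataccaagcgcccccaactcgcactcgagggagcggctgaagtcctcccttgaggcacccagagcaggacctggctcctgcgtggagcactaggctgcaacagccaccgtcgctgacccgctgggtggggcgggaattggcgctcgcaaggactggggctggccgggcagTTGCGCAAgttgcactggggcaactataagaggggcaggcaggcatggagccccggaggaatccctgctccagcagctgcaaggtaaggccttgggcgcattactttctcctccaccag
Plin1, chr1:143086099-143086398, minus strand: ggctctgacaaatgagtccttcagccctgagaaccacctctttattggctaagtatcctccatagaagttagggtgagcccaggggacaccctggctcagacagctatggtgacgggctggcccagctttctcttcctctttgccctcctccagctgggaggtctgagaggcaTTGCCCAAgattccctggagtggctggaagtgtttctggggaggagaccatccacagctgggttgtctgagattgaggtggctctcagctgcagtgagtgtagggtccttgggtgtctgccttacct
Cidec, chr4:148137066-148137365, minus strand: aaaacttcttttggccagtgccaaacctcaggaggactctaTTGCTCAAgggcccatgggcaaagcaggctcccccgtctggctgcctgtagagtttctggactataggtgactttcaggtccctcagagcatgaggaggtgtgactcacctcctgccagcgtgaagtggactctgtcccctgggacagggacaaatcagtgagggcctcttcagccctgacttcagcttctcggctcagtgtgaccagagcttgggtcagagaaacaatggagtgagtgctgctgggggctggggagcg
Pparg second start, chr4:150154522-150154821, plus strand: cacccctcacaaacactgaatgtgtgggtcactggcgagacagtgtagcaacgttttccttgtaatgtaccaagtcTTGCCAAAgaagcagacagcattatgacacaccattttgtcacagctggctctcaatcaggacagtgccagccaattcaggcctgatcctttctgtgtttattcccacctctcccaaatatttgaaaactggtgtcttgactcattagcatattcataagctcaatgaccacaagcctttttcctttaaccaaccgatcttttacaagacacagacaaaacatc
The match in Lep reads the same on both strands. The element AGGTCANAGGTCA, which PPAR-gamma binds with its partner RXR, was in none of the 8 windows and in 0.0538% of all windows. Its repeated unit, AGGTCA, which lies within it, was also in none of the 8 windows, and in 16.2% of all. CCAAT, on either strand, was in 5 of the 8 windows and in 37.5% of all. These matches are letters in a window and not measured binding.

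The arrays had median intensities of 161 to 223 and each had been scaled as a whole. Intensities were analysed as log2(intensity + 42.8), and 11773 genes that exceeded 125.8 on at least 3 arrays were tested with limma at an adjusted p under 0.05. The line of 125.8 is the 40th percentile of all values and is called the filter line below. It is no detection limit, but differences between values under it were not read as an order. The 3′ over 5′ ratio of the hexokinase control, a sign of RNA quality, was 12.3 on 1 MNU nonmutated array, 1.66 to 4.66 on the other cancers and 2.39 to 3.41 on normal tissue. In bulk tissue, fewer adipocytes and less RNA per adipocyte cannot be told apart.

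The first comparison set the 33 cancers against the 3 normal tissues. Of the 10 genes, 9 were lower in the cancers and none was higher, while 16.3% of all 11773 genes tested were called lower. The 10 genes were chosen with earlier results of these data known, so this count is a description. Their median log2 difference was −3.36, beside 0.02 over all genes. Adipoq, Lep and Cidec were tested only because normal tissue lies above the filter line, so a difference was built into their presence among the tested genes. The second Plin1 probe set likewise exceeded that line on normal tissue only. On 11 of the 12 probe sets every cancer lay below every normal tissue, and the exception was 1 of the 2 probe sets of Lipe. The share of all probe sets with such a separation was not counted, so this is also a description.

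**Figure D1:**
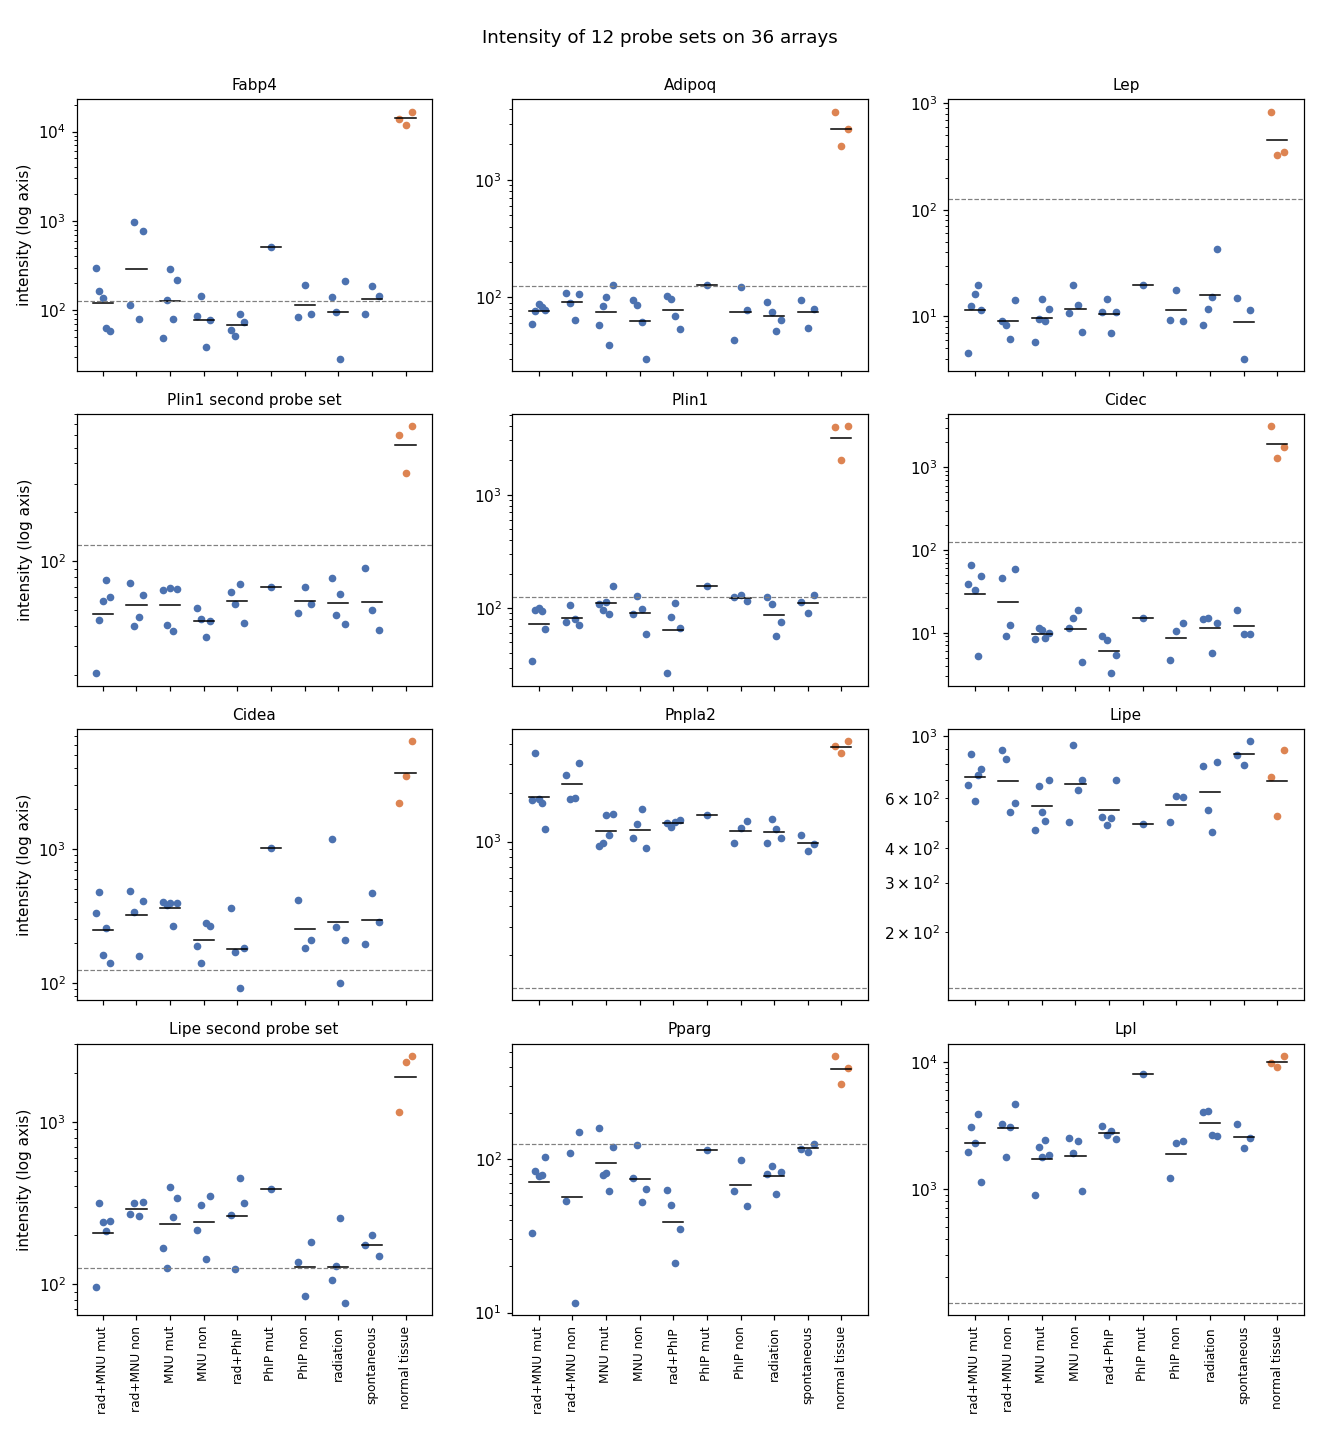
Intensity (log axis) of each of the 12 probe sets on 36 arrays, with 1 point per array, black bars at the geometric mean of a group and the dashed filter line at 125.8. Cancers are blue and normal tissue is orange (mut, H-ras mutated; non, nonmutated; rad, radiation). The 3 normal tissues lie above all 33 cancers in every panel except that of the first Lipe probe set.

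Fabp4, the fatty acid binding protein of the adipocyte cytosol, had a lowest intensity of 28.7, a median of 94.7 and a highest of 984 in the cancers, against 13889.6, 11970.0 and 16695 in normal tissue. The groups were far apart, with the lowest normal tissue 12.2 times the highest cancer. The log2 difference was −6.34 ± 0.44 (SE; limma adjusted p = 5.289e-12), and geometric means differed 115-fold. Of the cancers, 18 were under the filter line, so this fold is 83.4 when they are set to it.

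Transcripts of the secreted hormones had values at or under the filter line in almost every cancer. Adipoq, which encodes adiponectin, had a lowest, median and highest intensity of 30.1, 80.0 and 129 in the cancers, against 3785, 1943 and 2724 in normal tissue. Its log2 difference was −4.52 ± 0.19 (limma adjusted p = 5.441e-17), and only 2 of 33 cancers exceeded the line. Lep, which encodes leptin, the hormone that signals fat stores, had 4.00, 11.4 and 42.6 in the cancers, against 835, 328 and 348 in normal tissue. All 33 cancers were under the line for Lep, so with cancers set to that line it was at least 3.63-fold lower. The fitted log2 difference of Lep was −3.20 ± 0.15 (limma adjusted p = 3.31e-16), and it ran from −5.23 to −2.10 with other added constants.

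Transcripts of the droplet coat and fusion proteins were lower in all 33 cancers than in any normal tissue. Plin1, perilipin 1, guards the droplet surface against lipases. On the probe set with the higher mean, Plin1 had a lowest, median and highest intensity of 26.7, 96.3 and 157 in the cancers, against 3950.4, 2029 and 3988 in normal tissue. The log2 difference was −4.57 ± 0.20 (limma adjusted p = 5.441e-17). The second Plin1 probe set had 20.5, 54.6 and 91.1 in the cancers, against 598, 348 and 675 in normal tissue, which is at least 4.13-fold lower. Both Plin1 probe sets separated the groups completely.

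Cidec, which lets small droplets merge into a large one, had 3.22, 11.4 and 66.0 in the cancers, against 3122, 1301 and 1741 in normal tissue. It was at least 15.3-fold lower, and the fitted log2 difference was −5.07 ± 0.18 (limma adjusted p = 6.335e-19), with −7.10 to −3.85 under other added constants. Its relative Cidea, best known from brown fat and also present in lactating mammary epithelium of the mouse, had 92.0, 269 and 1182 in the cancers, against 2215, 3501 and 6353 in normal tissue. Cidea exceeded the filter line in 31 of 33 cancers. Its log2 difference was −3.51 ± 0.39 (limma adjusted p = 8.363e-08), and the lowest normal tissue was 1.87 times the highest cancer.

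Among the lipases, Pnpla2 and Lpl were lower in the cancers but above the filter line in each of them. Pnpla2 encodes adipose triglyceride lipase, the first step of fat breakdown. It had a lowest, median and highest intensity of 878, 1291 and 3485 in the cancers, against 3875, 3493 and 4134 in normal tissue. The groups did not overlap but touched, and the log2 difference was −1.46 ± 0.19 (limma adjusted p = 7.608e-07). Geometric means of the intensities, without the added constant, differed 2.81-fold. Lpl, the lipoprotein lipase that frees fatty acids at the capillary wall and is also made by lactating mammary gland, had 894, 2445 and 7996 in the cancers, against 9872, 9188 and 11153 in normal tissue. The log2 difference of Lpl was −2.03 ± 0.28 (limma adjusted p = 3.548e-06), and geometric means of the intensities differed 4.14-fold.

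Lipe, hormone-sensitive lipase, gave contrary answers on its 2 probe sets. On the one with the higher mean, which stood for the gene, the lowest, median and highest intensities were 456, 642 and 962 in the cancers, against 713, 520.3 and 895 in normal tissue. The groups overlapped, with 9 cancers below and 2 above all normal tissues, and the log2 difference of −0.11 ± 0.17 did not pass (limma adjusted p = 0.6544). On the second one they were 76.7, 240.4 and 448 in the cancers, against 1148, 2331 and 2549 in normal tissue. There the groups did not overlap, and the log2 difference was −2.93 ± 0.29 (limma on every probe set, adjusted p = 1.418e-08). Geometric means of the intensities, without the added constant, differed 9.09-fold. Over the 33 cancers the levels of both probe sets had a Pearson r of −0.08 (permutation adjusted p = 0.8293, 126 pairs). Which part of the transcript each probe set reads was not analysed here.

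**Figure D2:**
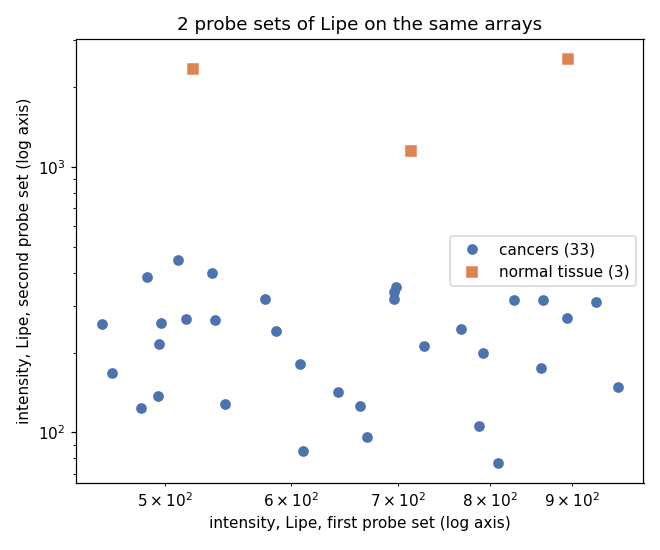
Intensity of Lipe on the second probe set (y, log axis) against that on the first (x, log axis), with 1 point per array for 33 cancers (blue circles) and 3 normal tissues (orange squares). Cancers reach 448 on the y axis, below the lowest normal tissue at 1148, while on the x axis the groups share the same range.

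Pparg, the nuclear receptor that drives fat cell formation, had 11.6, 78.9 and 161 in the cancers, against 471, 311 and 395 in normal tissue. For Pparg 30 of 33 cancers were under the filter line. The groups did not overlap, and the log2 difference was −1.85 ± 0.23 (limma adjusted p = 6.026e-07).

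**Figure D3:**
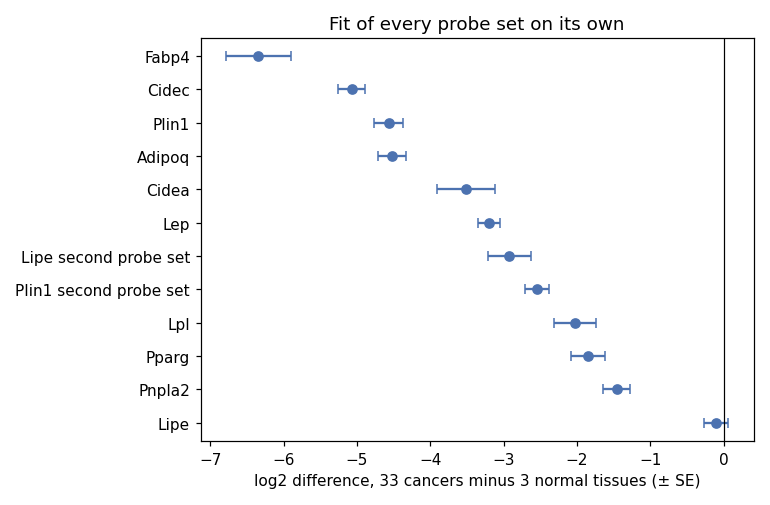
Log2 difference of 33 cancers minus 3 normal tissues (x axis) for each of the 12 probe sets, each fitted on its own with limma, with bars of 1 SE on either side. The differences run from −6.34 for Fabp4 to −0.11 for the first Lipe probe set, the only one whose bar reaches 0.

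The same 9 genes were called lower in each of the 8 cancer groups with at least 3 arrays, all set against the same 3 normal tissues. Adipoq, Lep and Cidec are among them and passed the filter only through those normal tissues, so their calls are no added evidence. Of all genes, 12.8% were called lower in the radiation plus MNU mutated cancers, 8.26% in the nonmutated ones, 13.9% in MNU mutated and 10.7% in MNU nonmutated cancers. The share was 11.3% after radiation plus PhIP, 11.3% in PhIP nonmutated, 10.3% in radiation-only and 10.5% in spontaneous cancers. Medians of the log2 differences over the 10 genes ran from −3.63 after radiation plus PhIP to −3.22 in MNU mutated cancers. The log2 difference of Pnpla2 was −0.74 ± 0.24 in radiation plus MNU nonmutated cancers (limma adjusted p = 0.02926) and −1.92 ± 0.25 in spontaneous cancers (limma adjusted p = 3.201e-06). Lipe, on its first probe set, did not pass in any of the 8 groups. Its second probe set was lower in each of them. There the log2 differences ran from −3.49 in PhIP nonmutated to −2.54 in radiation plus MNU nonmutated cancers (limma on every probe set, highest adjusted p = 2.524e-05).

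Other genes of the same pathways were read from 6 lists. Their counts stand beside 16.3% of all 11773 genes called lower and 18% called higher. Measured means above the filter line on at least 3 arrays, which the 3 normal tissues alone could meet. Genes high only in normal tissue could thus enter, and the counts are a description. Of the lipid droplet and lipolysis genes, 13 of 18 were measured, 11 were lower and none was higher, with a median log2 difference of −1.10. Abhd5, the activator of adipose triglyceride lipase, averaged 9.65 ± 0.41 (log2, SD, n = 33) in the cancers and 12.80 ± 0.40 (n = 3) in normal tissue, a difference of −3.16 ± 0.23 (limma adjusted p = 1.814e-11). The log2 difference was −2.80 ± 0.25 for the droplet protein Plin4, −2.78 ± 0.12 for the glycerol channel Aqp7 and −2.47 ± 0.31 for the last lipase of the pathway, Mgll. Without 1 array at a time, or under the other settings tried, 9 to 13 genes of this list were lower.

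Of the adipokines and their receptors, 12 of 15 were measured and 10 were lower, with a median of −0.87. Rbp4, the retinol carrier that fat also secretes, had a log2 difference of −3.98 ± 0.10 (limma adjusted p = 9.629e-23), the smallest p of all 11773 genes. It was −3.76 ± 0.42 for Cfd, the complement factor called adipsin, −1.70 ± 0.25 for the chemoattractant Rarres2 (chemerin) and −0.76 ± 0.16 for Nampt, an enzyme of NAD synthesis. Leaving out 1 array, 7 to 10 genes of this list were lower.

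Regulators of fat cell formation changed less evenly: 18 of 20 were measured, 8 were lower, 1 was higher and 9 did not pass, with a median of −0.65. The log2 difference was −1.59 ± 0.30 for Ebf1, −1.33 ± 0.23 for Cebpa, the C/EBP factor of mature fat cells, −1.21 ± 0.18 for Klf4 and −1.03 ± 0.16 for the sterol receptor Nr1h3. The gene that rose was Klf5, a factor of both preadipocytes and epithelium (0.74 ± 0.18, limma adjusted p = 0.002586), named after its value was seen.

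Of the partners of lipoprotein lipase, 7 of 12 were measured and 3 were lower, with a median of −0.45. Angptl4, a secreted inhibitor of the enzyme, averaged 9.75 ± 0.89 (log2, SD, n = 33) in the cancers and 13.19 ± 0.15 (n = 3) in normal tissue, a difference of −3.45 ± 0.45 (limma adjusted p = 9.779e-07). Gpihbp1, which anchors the enzyme on capillaries, had −1.74 ± 0.29, and Sel1l, needed for its release from the endoplasmic reticulum, −0.45 ± 0.15. The folding factor Lmf1 had −0.28 ± 0.13 and did not pass (limma adjusted p = 0.096). Without 1 array at a time, 2 to 3 genes of this list were lower.

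Of the genes through which hormones control lipolysis, 15 of 18 were measured, 7 were lower and 1 was higher, with a median of −0.52. The log2 difference was −2.26 ± 0.13 for the natriuretic peptide receptor Npr3 and −1.96 ± 0.28 for its relative Npr1. It was −1.16 ± 0.18 for the insulin-responsive glucose transporter Slc2a4 and −1.14 ± 0.15 for the fat cell adrenergic receptor Adrb3. The related receptor Adrb1, named after its value was seen, rose by 0.98 ± 0.22 (limma adjusted p = 0.0009107). Of 11 brown and beige fat genes 4 were measured and none passed, with a median of −0.16. Cpt1b, the mitochondrial fatty acid importer, had −0.26 ± 0.12 (limma adjusted p = 0.09457).

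Some marker lists of other cell types also differed between cancers and normal tissue, and their part in these results was not tested. Of 10 endothelial markers measured 9 were lower, and the mean log2 level of that list ran from 8.14 to 9.44 in the cancers and from 9.52 to 9.99 in normal tissue. Of 12 macrophage markers 5 were lower, with list means of 9.08 to 11.10 in the cancers and 10.31 to 10.70 in normal tissue. Without 1 normal tissue this macrophage count was 1 to 3. Of 13 luminal epithelial markers 8 were higher and 1 lower, where 18% of all genes were called higher, with list means of 10.99 to 11.82 in the cancers and 10.83 to 11.36 in normal tissue. Of 10 basal markers 3 were higher and 1 lower. Milk genes were lower in 3 of 7, fibroblast genes in 2 of 11, T cell genes in 1 of 8 and skeletal muscle genes in none of 9, beside the 16.3% of all genes called lower. Without 1 normal tissue at a time, the counts of lower milk, fibroblast and T cell genes were 0 to 1.

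**Figure D4:**
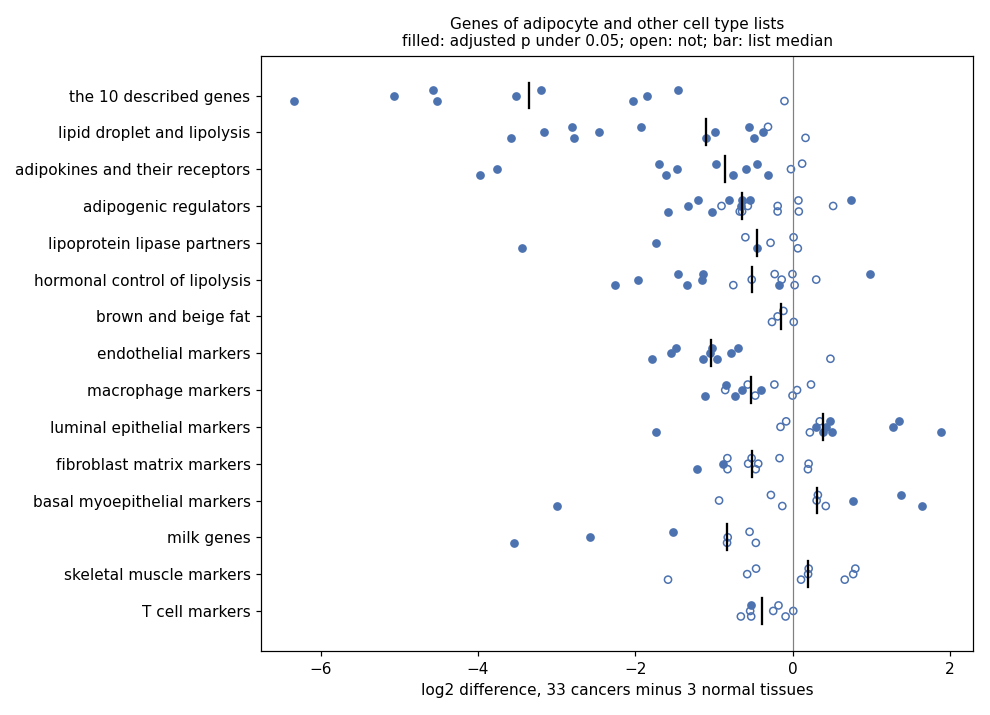
Log2 difference of 33 cancers minus 3 normal tissues (x axis) for each measured gene of the lists (rows), with filled points for a limma adjusted p under 0.05, open points for the others and a black bar at the list median. The 10 described genes have a median of −3.36 and endothelial markers −1.04, while luminal epithelial markers have 0.39.

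The residual levels were then compared between the cancers. A limma F test over the 8 cancer groups with at least 3 arrays called none of the 10 genes, where 0.017% of all genes (2) were called. At an unadjusted p under 0.05 there were 2 of the 10 and 1183 of all genes. By limma these were Pnpla2 (unadjusted p = 8.135e-05, adjusted p = 0.1197) and Cidec (unadjusted p = 0.02569, adjusted p = 0.4302). Without 1 radiation plus MNU mutated array, replicate 5, Pnpla2 passed. That array held the lowest Pnpla2 of the radiation plus MNU cancers.

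Pnpla2 was highest in the cancers that followed radiation and MNU. Its intensities were 1790.0, 3485, 1820.4, 1732 and 1192 in mutated and 2560.0, 1836, 1847 and 3033 in nonmutated radiation plus MNU cancers. With MNU alone they were 941, 978, 1455, 1096 and 1478 in mutated and 1052, 1287, 1588 and 909.5 in nonmutated cancers. In nonmutated cancers these groups did not overlap, while in mutated cancers the lowest irradiated one lay among those given MNU alone. Macrophage list means had medians of 10.03 in mutated and 10.81 in nonmutated radiation plus MNU cancers. In MNU-only cancers these were 9.89 in mutated and 9.86 in nonmutated ones. The ranges overlapped, at 9.38 to 10.55 with radiation and 9.50 to 9.91 without in mutated cancers. In nonmutated cancers they were 10.02 to 11.10 and 9.79 to 10.50. None of the 12 macrophage markers passed between irradiated and MNU-only cancers (median log2 difference 0.46). Milk genes had a larger median difference (0.59), and none of the 7 measured passed. The part of either list in the Pnpla2 levels was not tested.

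Elsewhere Pnpla2 lay in a narrow band. It had 1291, 1237, 1323 and 1365 after radiation plus PhIP, 1451 in the PhIP mutated cancer and 977, 1204 and 1344 in PhIP nonmutated cancers. Radiation alone gave 974, 1374, 1201 and 1058, and the spontaneous cancers 1098, 878 and 964. In the order of group means, neighbours from radiation plus PhIP down to radiation alone differed by less than the larger of their SDs. Radiation-only cancers stood 0.22 above the spontaneous ones on the log2 scale, beside an SD of 0.21. Radiation plus MNU nonmutated cancers stood 0.26 above the mutated ones, within an SD of 0.55.

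Set against MNU alone, over both H-ras states, radiation plus MNU gave Pnpla2 a log2 difference of 0.79 ± 0.15 (limma unadjusted p = 7.977e-06, adjusted p = 0.09391). This comparison was added after the values had been seen, and 0% of all genes passed it, with 1298 at an unadjusted p under 0.05. It exceeded the radiation difference in the other backgrounds, untreated and PhIP, by 0.60 ± 0.22, which did not pass (limma adjusted p = 0.4284). None of the 10 genes and 0.00849% of all genes passed that test. Without MNU nonmutated replicate 3, or without radiation plus MNU mutated replicate 5, the radiation difference of Pnpla2 after MNU passed (lowest limma adjusted p = 0.009013). The first held the highest Pnpla2 of the MNU-only cancers and the second the lowest of the radiation plus MNU cancers. Leaving out either therefore widens the difference, and over all settings the limma adjusted p reached 0.2378.

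Cidec was under the filter line in every cancer, so its values are given without an order. It had 39.0, 66.0, 32.9, 5.20 and 48.2 in mutated and 46.4, 9.02, 12.4 and 58.3 in nonmutated radiation plus MNU cancers, against 8.35, 11.4, 10.7, 8.57 and 9.80 in mutated and 11.4, 14.9, 18.8 and 4.47 in nonmutated cancers after MNU alone. The fitted log2 difference of 0.48 ± 0.14 did not pass (limma adjusted p = 0.2569). It was 1.28 with 1 in place of 42.8 as the constant and 0.15 with a floor, so its size depends on how low values are treated.

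Averaged over 4 backgrounds, radiation called none of the 10 genes and 0% of all genes by limma, with 4 of the 10 and 1166 of all genes at an unadjusted p under 0.05. Pnpla2 had 0.49 ± 0.11 (limma adjusted p = 0.2492), Lpl 0.50 ± 0.17 (0.3926), Plin1 −0.32 ± 0.12 (0.3926) and Pparg −0.30 ± 0.14 (0.4922). With array weights, whose estimation stopped before convergence, Pnpla2 passed (limma adjusted p = 0.02885). It did not pass under any other setting (highest limma adjusted p = 0.5582).

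Against the spontaneous cancers, 5 groups of induced nonmutated cancers gave 50 comparisons for the 10 genes. The shared baseline is 3 arrays. The only call was Pnpla2 after radiation plus MNU, at 1.18 ± 0.24 (limma adjusted p = 0.03942), where 0.0764% of all genes passed. It did not pass without any 1 of the 3 spontaneous or of the 4 radiation plus MNU nonmutated arrays, nor without some arrays of other groups. After MNU alone, radiation plus PhIP, PhIP alone and radiation alone none of the 10 passed, with 0.0425%, 0.0255%, 0.00849% and 0.0255% of all genes called. Of the 10 genes, at an unadjusted p under 0.05, these 4 comparisons held 0, 2, 1 and 1, beside 983, 1209, 633 and 598 of all 11773 genes.

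H-ras mutation called none of the 10 genes and 0% of all genes by limma, averaged over MNU and radiation plus MNU, and none of the 10 had an unadjusted p under 0.05 (886 of all genes did). The median log2 difference of the 10 genes was 0.00, as was that of all genes. In radiation plus MNU cancers alone Fabp4 was the only one of the 10 below that p, beside 460 of all genes. It had 295, 164, 137, 63.7 and 58.5 in mutated ones, against 115, 984, 80.7 and 773 in nonmutated ones, a log2 difference of −1.09 ± 0.49 (limma unadjusted p = 0.03548, adjusted p = 0.9996). The nonmutated group was split, with 2 arrays far above the 5 mutated ones and 2 among them. After MNU alone Fabp4 had 48.4, 131, 293, 79.3 and 215 in mutated and 86.4, 143, 39.2 and 78.1 in nonmutated cancers, a log2 difference of 0.50 ± 0.49. The difference between both contrasts was −1.59 ± 0.70 (limma unadjusted p = 0.03032, adjusted p = 0.9999).

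Single cancers stood apart on some probe sets. The 1 PhIP mutated cancer had the highest Lpl of all cancers (7996) and 516 for Fabp4, 1018 for Cidea and 157 for Plin1, against 1217 to 2397 for Lpl, 84.5 to 191 for Fabp4, 184 to 421 for Cidea and 117 to 131 for Plin1 in the 3 PhIP nonmutated ones. These 4 genes were picked after their values were seen. The mutated cancer lay above all 3 on 10 of the 12 probe sets, and not on the first of Lipe (487 against 495 to 611) or the second of Plin1 (69.5 against 48.1 to 69.6). How often it did so over all probe sets of the array was not counted, so the count is not read as a trait of these genes. For Lep, Cidec and Pparg all values behind this count were under the filter line and give no order. Adipoq lay at the line, with 127 against 43.4 to 122. The mean of the T cell markers, a list picked after its values were seen, was 8.55 in the mutated cancer, against 7.12 to 7.69 in those 3. The macrophage mean (10.25 against 9.08 to 10.07) and the milk gene mean (13.60 against 12.22 to 13.53) were also higher. The luminal epithelial mean was lower (11.34 against 11.53 to 11.68). Endothelial, basal, fibroblast and skeletal muscle means lay within the range of those 3. The difference of this array was not tested. Among radiation-only cancers Cidea had 1182, 262, 100.4 and 209, so 1 array held the highest value of any cancer and another was under the filter line.

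Levels across the 33 cancers were correlated for the 66 pairs of probe sets and for 60 pairs of a probe set with the mean of a marker list, 126 pairs in all. By Pearson r 5 pairs had a permutation p, adjusted over the 126, under 0.05, and by Spearman rho none did. Arrays of 1 label group enter together, so r was also taken with group means removed, where 4 of the 5 passed. Pairs outside the 5 also passed there: Pnpla2 with Lpl (r 0.59, permutation adjusted p = 0.02226) and Pparg with the macrophage list (r 0.52, permutation adjusted p = 0.04578). With group means kept, these had r 0.39 and 0.33 and did not pass (permutation adjusted p = 0.2163 and 0.3298).

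Cidec and Pnpla2 had the highest r, 0.71 (rho 0.44, permutation adjusted p = 0.00504 and 0.182), and 0.53 with group means removed. Without the 2 arrays farthest from the median of Cidec, radiation plus MNU mutated 2 and nonmutated 4, r was 0.47. All Cidec values behind it were under the filter line. Fabp4 and the macrophage list had r 0.61 (rho 0.52, permutation adjusted p = 0.01323 and 0.08484), and 0.58 with group means removed. Without radiation plus MNU nonmutated 2 and 4, the arrays with 984 and 773, r was 0.33 and did not pass (permutation adjusted p = 0.3796).

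Pnpla2 and the macrophage list had r 0.55 (rho 0.46, permutation adjusted p = 0.03402 and 0.182), 0.54 with group means removed and 0.40 without 2 arrays. Lpl and the milk genes had r 0.55 (rho 0.53, permutation adjusted p = 0.03402 and 0.08484), 0.58 with group means removed and 0.54 without 2 arrays. Adipoq and the second Plin1 probe set had r 0.52 (rho 0.55, permutation adjusted p = 0.04788 and 0.08484) and 0.48 without 2 arrays, at values almost all under the line. With group means removed it had 0.50 and did not pass (permutation adjusted p = 0.05976). No pair passed the adjusted threshold with 2 arrays left out. The 2 probe sets of Plin1 had r 0.30.

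**Figure D5:**
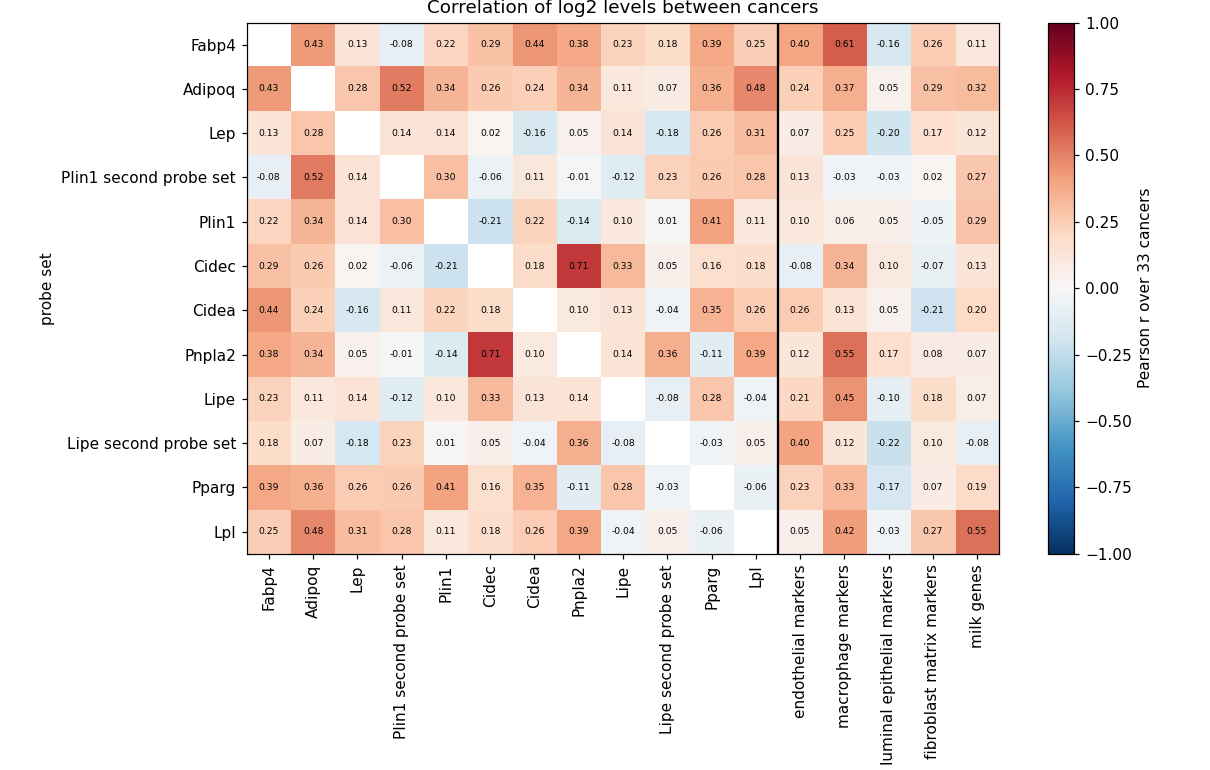
Pearson r over 33 cancers (colour and printed value) between the log2 levels of the 12 probe sets (left of the line) and between each of them and the mean log2 level of 5 marker lists (right). Cidec with Pnpla2 (0.71) and Fabp4 with macrophage markers (0.61) are highest, and the 2 Lipe probe sets have −0.08.

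For each gene the most similar genes among 11772 others were found by Pearson r over the 33 cancers, as a description. Fabp4 was closest to the fatty acid transporter Cd36 (0.70), Cfd (0.68) and the interleukin receptor Il7r (0.67). Cidea was closest to the acetoacetate and acetate activating enzymes Aacs (0.71) and Acss2 (0.68) and to Abhd5 (0.63). Lpl was closest to the monocarboxylate transporter Slc16a1 (0.80), the secretory kinase Fam20c (0.78) and the endocytic protein Ehd1 (0.78).

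Pnpla2 was closest to the cochaperone Dnajc7 (0.81), the thioredoxin inhibitor Txnip (0.75) and the kinase Map3k8 (0.75). Cidec, under the filter line throughout, was closest to Med8 (0.71), Pnpla2 (0.71) and Ilrun (0.70). The first Lipe probe set was closest to the cell cycle inhibitor Cdkn1a (0.71), Adap2 (0.68) and Cnpy4 (0.67). For Adipoq, Lep, Plin1 and Pparg, mostly under the line, the highest r was 0.70 with Cytl1, 0.64 with Tnfsf11, 0.64 with Slx4 and 0.71 with Atp8b4, in that order of genes. The arrays, their depth of signal and their label groups are common to all these values.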

How the data were processed

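Arrays of 33 cancers and 3 normal glands were used. The deposited table, the authors' own, holds 1 linear intensity per probe set and array, while its summarising and scaling method was not given in the sources used here. The mean of each array without the outer 2% at each end was about 500, so each array was scaled as a whole, and no normalization was added. Arrays hold no counts, so their number limits the precision. Every array took its group from its label, and none was left out.

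Of 31099 probe sets, 20832 carried 1 symbol in the platform annotation, 436 several and 9831 none, and 20764 matched the RefSeq gene table. The intensities were transformed as log2(intensity + 42.8), the 20th percentile of all values, on which folds of low genes are understated. Probe sets above 125.8 (the 40th percentile) on at least 3 arrays were kept, and the one with the highest mean stood for each symbol. All 10 genes and 12 probe sets passed. On cancers alone Adipoq, Lep, Cidec and the second Plin1 probe set would not have passed. A mean per label group was fitted with limma 3.58.1 in R 4.3.3, with Benjamini-Hochberg adjustment over 11773 genes. The PhIP mutated array entered only the mean of the cancers. Correlations used two-sided permutation tests with 1e+05 resamples (scipy 1.17.1), and the smallest p they can give is 1e-05. The fit was tested on simulated data.

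The 10 genes, the lists and the tests were chosen with earlier results of these data known. Named were all 10 genes, up to 4 genes per pathway list with the smallest adjusted p, and the 3 genes closest to each member by r, of which some are not printed. Labels number the replicates in every group. Over 122 pairs of arrays sharing a number in different groups the median correlation of deviations from the group means was −0.000207 (−0.498 to 0.394), so the numbers do not pair samples. Alternatives were other added constants, a floor, quantile normalization, no filter, every probe set on its own, array weights, a trended prior, a replicate block and leaving out each array.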

Additional observations from a re-analysis of the deposited data

Results flagged for a closer look

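Of 72 combinations of a probe set and a cancer group with at least 4 arrays, 1 held an array far from the others. Cidea in MNU mutated cancers had a log2 level of 8.28 (intensity 267) in replicate 4, while the other 4 arrays lay between 8.74 and 8.80 (383 to 401). The gap was 0.884 of the range of the group. Chance alone flags about 1 in 20 such groups.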

How the results depend on the processing

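In the cancers against normal tissue, 9 of the 10 genes were lower under every one of the 45 other settings, leaving out each array included, and Lipe, on its first probe set, did not pass under any. With other added constants, sizes of genes under the filter line moved, with log2 differences of −5.23 to −2.10 for Lep, −7.10 to −3.85 for Cidec and −2.40 to −1.33 for Pparg. Over all settings Fabp4 ran from −6.84 to −5.74 and Lipe from −0.30 to 0.07. No called value turned its direction. Over all genes, 2734 to 5758 passed in place of 4045. The single call among induced against spontaneous cancers, Pnpla2, was 0 with a constant of 1, with a floor, with every probe set on its own and with the replicate block, 3 with array weights, and 0 to 1 without 1 array at a time. The replicate block changed no other count of calls among the 10 genes. The F test over cancer groups, with 0 calls, had 1 with array weights and 0 to 1 without 1 array. It called 839 of all genes with array weights, whose estimation stopped before convergence, and otherwise 1 to 15 in place of 2. Radiation over 4 backgrounds, with 0 calls, had 1 with array weights. Radiation plus MNU against MNU, with 0 calls, had 0 to 1 without 1 array. The 5 called correlations were 3 after quantile normalization, all among the 5, and 0 without the 2 farthest arrays. The causes were not tested. Signal under the filter line limits Lep, Cidec, Adipoq and most of Plin1, Pparg and Fabp4 in cancers, and 3 normal tissues limit the whole comparison.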
